A study of Solanum lycopersicum with 6 samples.

Results

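Transcripts of 5 lipoxygenase, jasmonate and wound-response genes were measured in mature green fruit of Micro-Tom, a miniature tomato variety (MicroTom in the labels). The members were all probe sets whose platform annotation carried exactly the gene symbol loxC, TomloxE, AOS, TD2 or ER1, which gave 5 probe sets, 1 for each of the 5 genes, of 10101 probe sets tested (909 of them with a gene symbol, for 803 gene identifiers under 802 symbols). The control group comprised 3 arrays from plants kept under normal conditions with liquid fertilizer diluted 500-fold, and the drought group 3 arrays from plants that received the same dilution once a week. All plants shared a greenhouse with a daytime temperature of 25 °C and an evening temperature of 20 °C, and harvest took place 30 to 40 days after flowering. Water and nutrient supply were thus tied together in the treatment, and the labels gave neither the number of plants behind an array nor whether samples were pooled. The question was how the fruit levels of these transcripts differed between drought and control.

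Lipoxygenases add oxygen to polyunsaturated fatty acids, and the resulting hydroperoxides feed several branches of oxylipin synthesis. Allene oxide synthase commits one branch to jasmonate, the hormone that switches on defence genes after wounding, while hydroperoxide lyase opens the branch to the green-leaf aldehydes that contribute to tomato aroma. In wounded or insect-fed tomato leaves, jasmonate raises proteinase inhibitors and other anti-nutritive proteins that act in the gut of the feeding insect.

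Values are probe set summaries as deposited, taken as log2, and a difference is the drought mean minus the control mean on that scale. Most probe sets hardly varied. In 75.71% of them the range over the 6 arrays was under 0.001, the median range was 0.00013, and a range over 0.1 was found in 268 (2.65%). Among spike-in controls of bacterial or phage origin, the median range was 7.9e-06 and the largest 0.00047. A difference on this scale may therefore not equal a fold change in transcript. Control replicate 3 resembled the drought arrays (Pearson's r of 0.9990 to 0.9992 across probe sets, which are not independent) more than the other controls (0.9960 and 0.9970), so values that rest on it are given with and without it. In bulk fruit RNA, fewer cells of a type and less RNA per cell cannot be told apart.

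The members were selected on their drought and control values, the same contrast as here, so their differences between drought and control are given as a description, with no test. By mean, TD2 was higher in drought and TomloxE, AOS and ER1 were lower, by 0.18 to 0.65 on the log2 scale, while loxC was nearly constant. All 3 drought arrays lay below all 3 control arrays for TomloxE and ER1, that is for 2 of the 5 members. Over all tested probe sets, 14.3% were separated in that direction, 20.5% in the other and 34.8% in all. The same contrast chose the members, so nothing is read from this count.

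**Figure D1:**
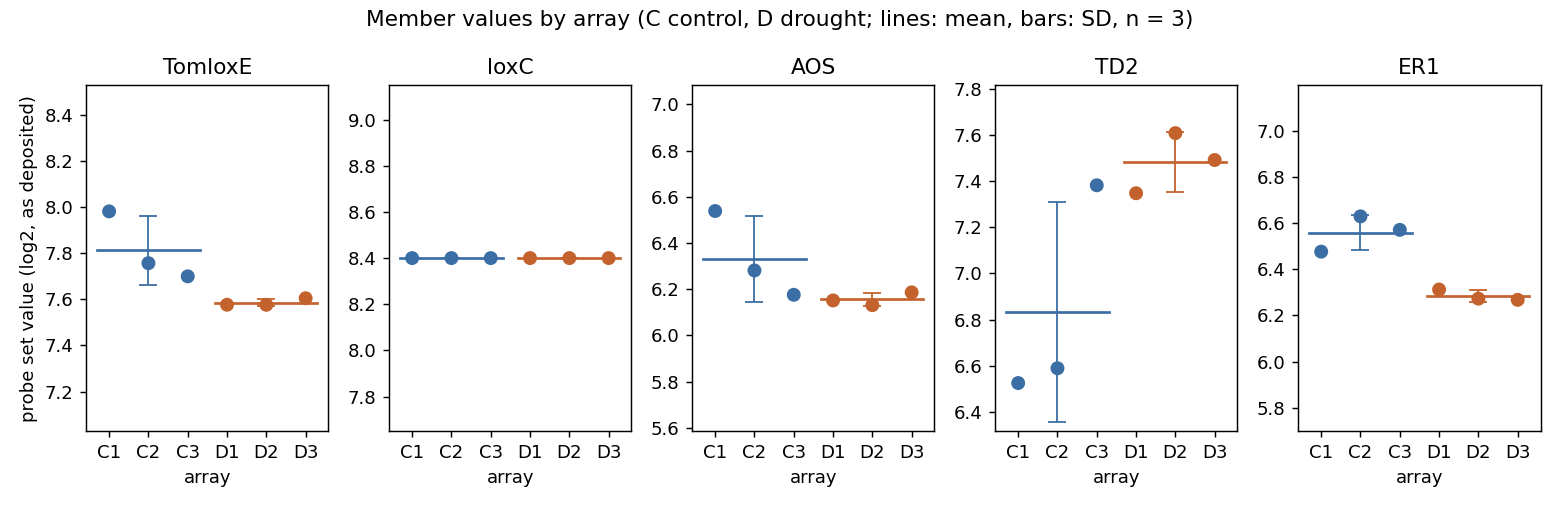
Probe set values (log2, as deposited) of the 5 member genes on each array, with 3 control arrays (C1 to C3) in blue and 3 drought arrays (D1 to D3) in orange. Lines mark group means and bars the SD (n = 3), all panels span the same number of log2 units, and C3 of TD2, at 7.38, stands among the drought arrays.

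TomloxE encodes a lipoxygenase. Its level was 7.98, 7.76 and 7.70 in control replicates 1 to 3 and 7.58, 7.58 and 7.60 in drought replicates 1 to 3. The groups did not overlap, with a gap of 0.095 between the lowest control and the highest drought array, and control replicate 1 stood above the rest. The control mean was 7.81 ± 0.149 (SD, n = 3) and the drought mean 7.59 ± 0.0163 (SD, n = 3), which differ by -0.23 ± 0.086 (SE). Without control replicate 1 the difference was -0.14, and without control replicate 3 it was -0.28.

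The other lipoxygenase among the members, loxC (TomloxC), acts in the chloroplast and supplies the fatty acid hydroperoxides from which fruit aroma volatiles are made. Its level was 8.39983, 8.39979 and 8.39978 in control and 8.39979, 8.39978 and 8.39973 in drought, and the groups overlapped. Its range of 0.00010 over the 6 arrays lay above the median spike-in range of 7.9e-06 and below the largest of 0.00047. Its difference was -3.1e-05 ± 2.5e-05 (SE). The variation of loxC was thus of a size also reached by probe sets for no tomato gene. Its level lay near the 59th percentile of each array (59.3 to 59.5), so this was not a probe set at the bottom of the scale.

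AOS encodes allene oxide synthase, a cytochrome P450 of the CYP74 family that converts the hydroperoxide of linolenic acid to the unstable allene oxide from which jasmonate is made. Its level was 6.54, 6.28 and 6.18 in control and 6.15, 6.13 and 6.19 in drought. The groups overlapped by 0.010, because control replicate 3 lay just under drought replicate 3, and control replicate 1 was the highest by far. The control mean was 6.33 ± 0.187 (SD, n = 3) and the drought mean 6.16 ± 0.0280 (SD, n = 3), which differ by -0.18 ± 0.11 (SE). Leaving out control replicate 1 reduced it to -0.072, and leaving out control replicate 3 brought it to -0.25, with the remaining groups 0.095 apart. The value of AOS was low on every array, between the 12.5th and the 23.0th percentile.

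TD2 encodes the defence form of threonine deaminase, which wounding and jasmonate induce in tomato leaves and which degrades threonine in the gut of feeding caterpillars. Its level was 6.53, 6.59 and 7.38 in control and 7.35, 7.61 and 7.49 in drought. Control replicates 1 and 2 were low, whereas control replicate 3 lay inside the drought range, so the groups overlapped. The control mean was 6.83 ± 0.477 (SD, n = 3) and the drought mean 7.48 ± 0.130 (SD, n = 3), which differ by 0.65 ± 0.29 (SE). It was 0.92 without control replicate 3, with the remaining groups 0.76 apart, and 0.50 without control replicate 1. Of the 5 members TD2 had the widest range, 1.08, the 38th widest of all tested probe sets. It was also the one whose position moved most within an array, from the 22.8th to the 43.7th percentile.

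ER1 encodes an ethylene-responsive proteinase inhibitor of the potato inhibitor I family, a class of proteins that block serine proteases of insects and microbes. Its level was 6.48, 6.63 and 6.57 in control and 6.31, 6.27 and 6.27 in drought. The groups did not overlap, the gap of 0.16 was wider than that of TomloxE, and for ER1 control replicate 3 stood with the other controls. The control mean was 6.56 ± 0.0771 (SD, n = 3) and the drought mean 6.28 ± 0.0244 (SD, n = 3), which differ by -0.27 ± 0.047 (SE). Leaving out any 1 of the 6 arrays kept it between -0.32 and -0.24. ER1 lay between the 16.6th and the 24.8th percentile of the arrays.

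**Figure D2:**
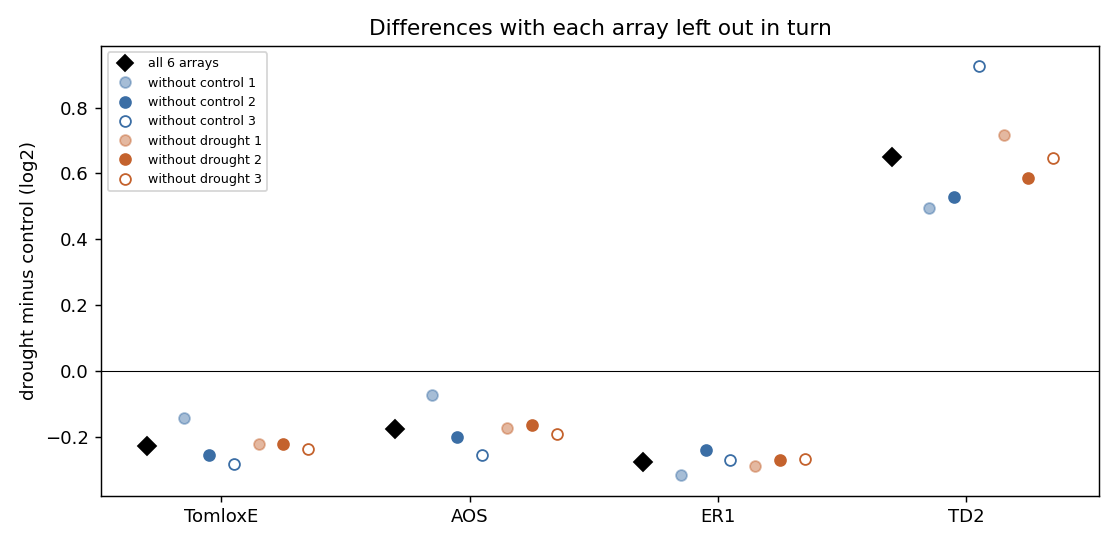
Drought minus control (log2) for TomloxE, AOS, ER1 and TD2 with all 6 arrays (diamonds) and with each array left out in turn (circles). AOS shrinks to -0.072 without control replicate 1 and TD2 grows to 0.92 without control replicate 3, while ER1 stays between -0.32 and -0.24.

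The 4 members that varied did not share 1 pattern over the arrays. TomloxE and AOS ran together (Pearson's r = 0.97 over the 6 arrays), both with their peak on control replicate 1, which exceeded the mean of the other controls by 0.25 and 0.31. TD2 ran opposite to both (r = -0.87 with TomloxE and -0.85 with AOS). ER1 followed them less closely (r = 0.59 with TomloxE, 0.41 with AOS and -0.69 with TD2), since its peak lay on control replicate 2 and its control replicate 1 was the lowest control. These coefficients describe 6 points that share the division into control and drought, and they carry no test. A peak on control replicate 1 was also found in 58 of the 268 probe sets with a range over 0.1.

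In these 4 genes the control arrays were more dispersed than the drought arrays, with a control SD 9.12 times the drought SD for TomloxE, 6.67 times for AOS, 3.66 times for TD2 and 3.16 times for ER1. This was general among variable probe sets. Of the 268 with a range over 0.1, 241 (89.9%) had the larger SD in control, and the median ratio was 2.58.

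**Figure D3:**
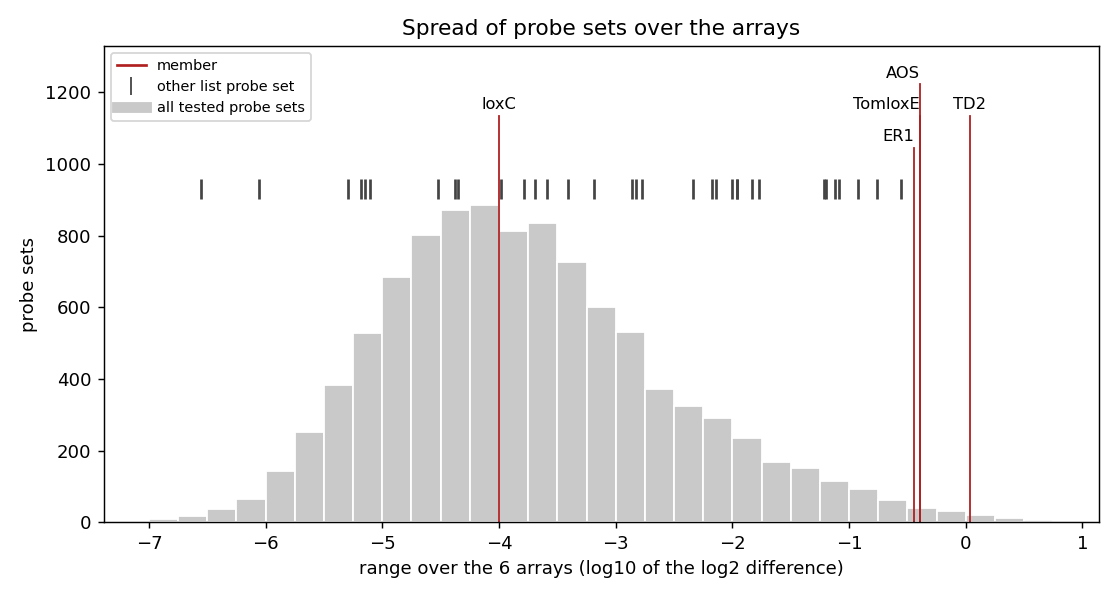
Histogram of the range over the 6 arrays (log10 axis of the log2 difference) for the 10101 tested probe sets, with the members as red lines and the other 33 pathway probe sets as ticks. TomloxE, AOS, ER1 and TD2 lie among the 268 probe sets with a range over 0.1, and loxC, at 0.00010, lies in the body of the distribution.

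For each member, the most similar named genes were taken by Pearson's r over the 6 arrays among genes with a probe set of range over 0.1. For TomloxE there were 68 candidates, and the closest was RIN, the MADS-box regulator of ripening (r = 0.997), at 6.20, 6.04 and 6.005 in control and 5.93, 5.94 and 5.95 in drought. It was followed by LOC543815 (r = 0.996) and the ACC synthase gene ACS6 (r = 0.97). For AOS, the NAC transcription factor gene NAC1 came first (r = 0.99, difference -0.069), then RIN (r = 0.98) and TomloxE. The genes most like ER1 were the chitinase gene CHI9 (r = 0.99, difference -0.20), LOC543758 (r = 0.96) and the osmotin-like gene NP24-I (r = 0.96). TD2 was most similar to gad2 (r = 0.96, difference 0.12), the xyloglucan endotransglucosylase gene XTH16 (r = 0.95, difference 0.21) and LOC543898 (r = 0.93, difference 1.12). In control replicate 3, LOC543898 stood at 6.79 against 7.43 to 7.57 in drought. In LOC543898, gad2 and XTH16 the groups did not overlap, unlike in TD2. Over all tested probe sets they did not overlap in 34.8%. These genes were picked for likeness to TD2, a member selected on this contrast, so nothing is read from their separation. For loxC the highest r was 0.84, and its variation of 0.00010 makes this figure uninformative.

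**Figure D4:**
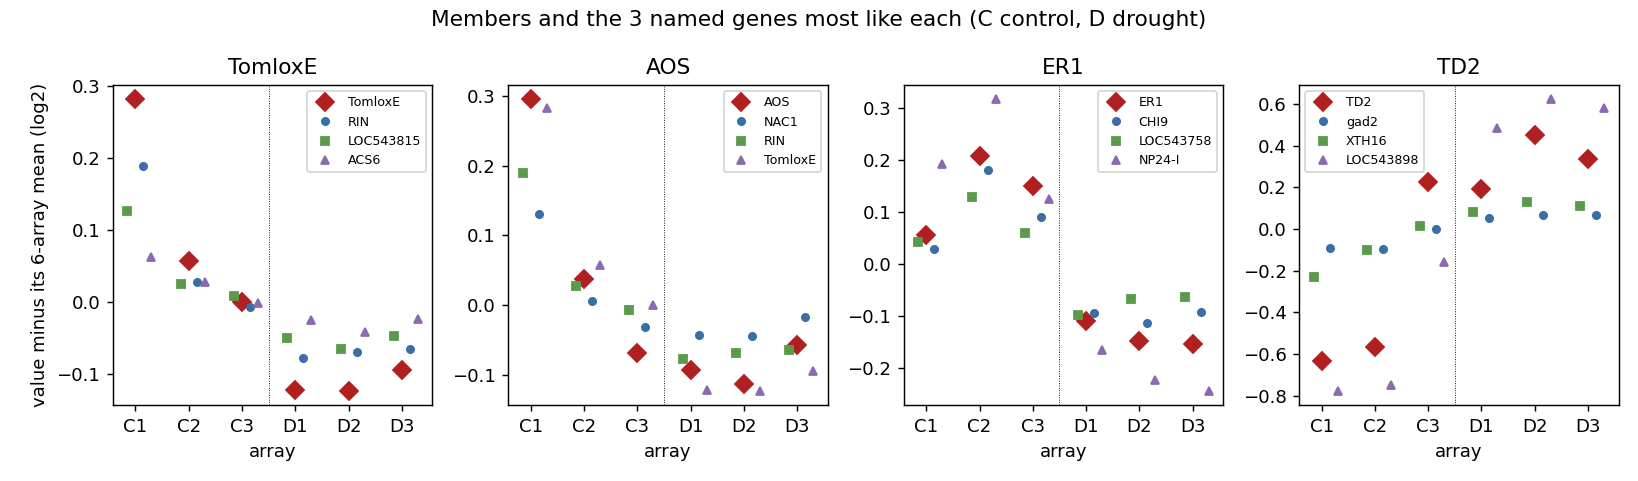
Values minus their 6-array mean (log2) for 4 members (diamonds) and the 3 named genes most like each, by array (C1 to C3 control, D1 to D3 drought). TomloxE, AOS and RIN peak on C1, ER1 with CHI9 and NP24-I on C2, and TD2 and its likes are lowest on C1 and C2.

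The tissue labels were set against marker genes by symbol. The 3 chlorophyll-binding protein genes, which mark green tissue, averaged 9.19 to 9.26 in the control arrays and 9.16 to 9.24 in the drought arrays. The 9 probe sets of 7 ripening genes averaged 6.89 to 6.94 in control and 6.88 to 6.89 in drought. The ripe-fruit polygalacturonase gene PG2 stood at 5.95 on every array. The 3 probe sets of the ripening gene Psy1 stood at 10.01 to 10.02, 7.22 and 6.18, the highest of them above the averages of the green-tissue list. Like TomloxE and AOS, RIN and the ripening gene E8 were highest on control replicate 1 (6.20 and 7.36), where E8 ran from 7.15 to 7.23 on the other 5 arrays. The part of ripening stage in the values of TomloxE and AOS was not tested. The 3 lipid transfer protein genes of the epidermis averaged 9.784 to 9.791 in control and 9.774 to 9.780 in drought. The 2 mannanase genes of the seed list averaged 6.011 to 6.021 in control and 6.025 to 6.027 in drought. This shift rested on MAN2, which differed by 0.022, while MAN1 differed by -3.3e-06. In the epidermis and seed lists the averages did not overlap between the groups. Over all single probe sets tested, the groups did not overlap in 34.8%.

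Around the members, a list of lipoxygenase, jasmonate and wound genes matched 33 further probe sets of 26 genes by symbol or synonym. None of the 33 passed the limma test over all probe sets (adjusted p threshold 0.05), which called 0.762% of all tested probe sets, and 7 of the 33 had an unadjusted p under 0.05, as did 2524 of all 10101. Means were lower in drought for 24 and higher for 9. Lower means were found in 50.8% of all tested probe sets and in 502 of the 909 with a gene symbol. The 24 are probe sets and not separate genes, since every probe set of MPK3, ARG2 and LOC606710 is among them. The median difference of the list was -2.8e-05, and -1.1e-07 over all probe sets. The groups did not overlap for 7 of the 33 (21.2%), 3 higher and 4 lower, against 34.8% of all probe sets. This split moved with the scaling, to 1 higher and 8 lower after quantile normalization and to 0 higher and 24 lower after median centring, where 9480 of all 10101 probe sets were separated. A range over 0.1 was found in 3 of the 33, against 268 (2.65%) of all tested probe sets and 74 of the 909 with a gene symbol.

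**Figure D5:**
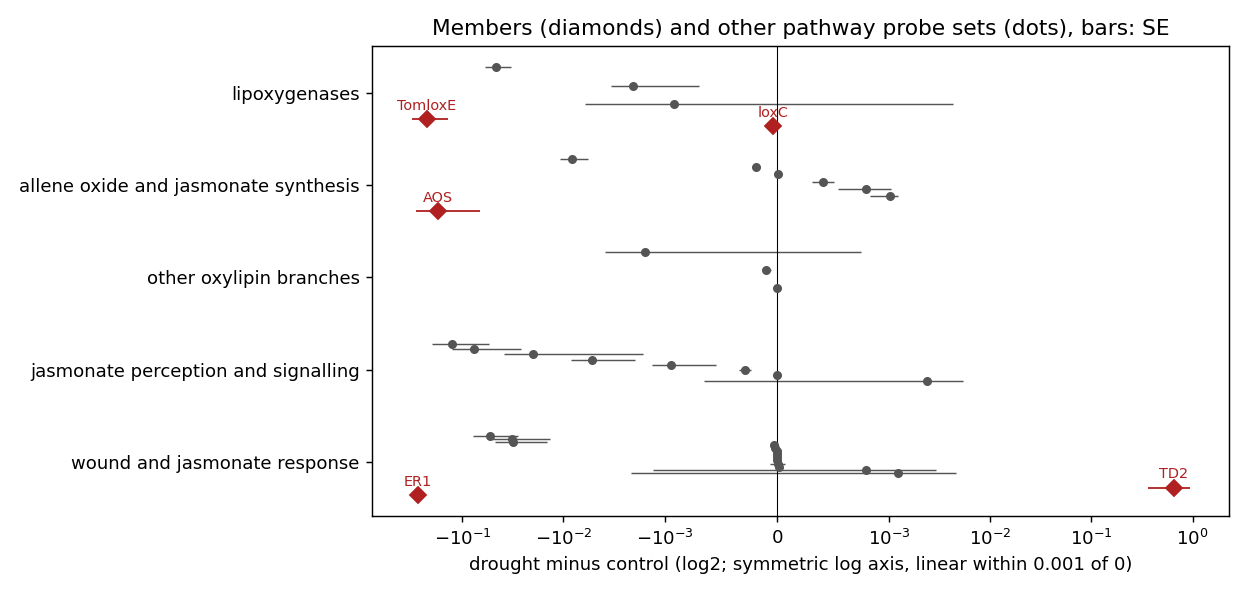
Drought minus control (log2, symmetric log axis) for the members (red diamonds) and the other 33 pathway probe sets (grey dots), by role. Bars are SE, from each probe set's own spread for members and from limma for the others. Most other pathway probe sets lie within 0.01 of 0, and the median absolute difference over all tested probe sets was 4.5e-05. The members were selected on this contrast, so nothing is read from their place outside the other dots.

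Among the other lipoxygenase genes, LOX1.1 (TomloxA) had the largest difference. Its level was 10.97, 10.94 and 10.92 in control and 10.89, 10.90 and 10.90 in drought, with no overlap and, as for TomloxE, control replicate 1 the highest. The difference was -0.046 ± 0.014 (SE, limma adjusted p = 0.143, or 0.0830 with control replicate 3 left out). LOXB, which lies 3 protein-coding genes from TomloxE in the gene order of RefSeq assembly SLM_r2.1, differed by -0.0020 ± 0.0014 (SE, limma adjusted p = 0.420). The chloroplast lipoxygenase gene loxD supplies the wound-induced jasmonate pathway. Its difference was -0.00091 ± 0.0052 (SE, limma adjusted p = 0.951, or 0.133 with control replicate 3 left out). Its sign turned when single arrays were left out (-0.0062 to 0.0023). Probe sequences were not used here, so cross-hybridization among these related lipoxygenases was not tested.

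The other genes listed under jasmonate synthesis, which act before or after AOS, differed by small amounts and in both directions. OPR3, which encodes the reductase of the jasmonate precursor oxophytodienoic acid, had the smallest p of the list, with a difference of -0.00018 ± 3.0e-05 (SE, limma adjusted p = 0.0661). The limma adjusted p was 0.0492 without control replicate 3 and 0.0457 with array weights, where 546 and 391 of all probe sets were called. The main fit called 77. After median centring, where 9406 were called, the limma adjusted p of OPR3 was 0.0201. It was 0.172 after quantile normalization, 0.171 with the replicate block and at most 0.232 under the alternatives. The range of OPR3 over the 6 arrays, 0.00026, lay between the median spike-in range of 7.9e-06 and the largest of 0.00047. The related reductase gene OPR1 differed by -0.0082 ± 0.0025 (SE, limma adjusted p = 0.151). The desaturase gene Fad7, whose enzyme makes the linolenic acid that lipoxygenases use, differed by +0.0010 (limma adjusted p = 0.0753), the allene oxide cyclase gene AOC by +0.00080 (0.159) and opr2 by +0.00041 (0.104). OPR1, Fad7, AOC and opr2 were chosen after their values were seen. In OPR3 and these 4 genes the groups did not overlap, as in 34.8% of all tested probe sets, and Fad7, AOC and opr2 fell below 0 after quantile normalization (-0.0019, -0.0055 and -0.0039) and after centring. The sixth probe set of this group, DAD1, matched by name alone, since in tomato this symbol stands for a defender against cell death and not for the jasmonate lipase of Arabidopsis.

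The parallel oxylipin branches had lower means in drought, none past the test. HPL, the gene of hydroperoxide lyase, differed by -9.6e-05 (limma adjusted p = 0.237), the divinyl ether synthase gene DES by -2.1e-06 (0.735) and the alcohol dehydrogenase gene ADH2, whose enzyme reduces aroma aldehydes, by -0.0016 (0.741). Like loxC, HPL and DES had ranges below the largest spike-in range (0.00016 and 6.6e-06).

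In jasmonate perception and signalling, the largest differences were those of MPK3, a mitogen-activated protein kinase gene activated by wounding. Its brightest probe set stood at 8.14, 8.20 and 7.98 in control and 7.97, 7.92 and 8.05 in drought. Control replicate 3 lay within the drought range, as it did for TD2. The difference was -0.13 ± 0.072 (SE, limma adjusted p = 0.353, or 0.122 with control replicate 3 left out). The other probe sets of MPK3 differed by -0.076 (limma adjusted p = 0.416) and -0.00094 (0.238). With control replicate 3 left out, these limma adjusted p were 0.123 and 0.0543. The 3 probe sets of MPK3 thus had the same sign and very unequal sizes. COI1, which encodes the F-box subunit of the jasmonate receptor, differed by -0.00029 ± 5.1e-05 (SE, limma adjusted p = 0.0715). The groups did not overlap for COI1, as in 34.8% of all tested probe sets. The range of COI1 over the arrays, 0.00039, lay below the largest spike-in range of 0.00047. MYC2, the transcription factor gene at the head of the jasmonate response, had its control replicate 3 within the drought range. It differed by -0.0052 (limma adjusted p = 0.398, or 0.0745 with control replicate 3 left out).

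Among the other wound and jasmonate response genes, the arginase gene ARG2, which is induced together with TD2 in wounded leaves, had the largest differences. Its brightest probe set stood at 8.62, 8.56 and 8.53 in control and 8.498, 8.54 and 8.52 in drought, so the groups overlapped and control replicate 1 was highest, as for TomloxE and AOS. The difference was -0.053 ± 0.025 (SE, limma adjusted p = 0.281, or 0.154 with control replicate 3 left out), opposite in sign to TD2. The remaining probe sets of ARG2 differed by -0.032 (limma adjusted p = 0.362) and -2.8e-05 (0.682). With control replicate 3 left out, their limma adjusted p were 0.200 and 0.167. The wound-induced leucine aminopeptidase gene LAPA1 differed by +0.0012 (limma adjusted p = 0.881) and the auxin-regulated proteinase inhibitor gene ARPI by -0.031 (0.329). LAPA1 and ARPI were chosen after their values were seen. The 4 probe sets of the polyphenol oxidase record LOC606710 lay between 5.74 and 6.01 and differed by at most 1.6e-05 in size.

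By position, ER1 lies among genes of the osmotin and thaumatin-like protein family in the gene order of RefSeq assembly SLM_r2.1, and of its 5 protein-coding neighbours on either side, 3 had a probe set here. NP24-I, the next gene, stood at 7.21, 7.33 and 7.14 in control and 6.85, 6.79 and 6.77 in drought, peaking on control replicate 2 as ER1 did (r = 0.96 over the 6 arrays, a description). Its difference was -0.42 ± 0.058 (SE, limma adjusted p = 0.0547, or 0.0419 with control replicate 3 left out). LOC543878, listed with the synonym PR5 and 4 genes away, differed by -0.030 ± 0.011 (SE, limma adjusted p = 0.199), again with no overlap between the groups (r = 0.92 with ER1). PR-5, 2 genes away, differed by -0.00014 (limma adjusted p = 0.352) and the groups overlapped. The neighbouring genes of ER1 therefore did not all carry differences of its size. None of the 10 nearest protein-coding genes of AOS or of TD2 had a probe set with a gene symbol here.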

How the data were processed

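RNA from 6 mature green fruit samples was hybridized to 6 single-colour arrays, as biotin-labelled cRNA, with 100 ng of total RNA as input, per the labels. The deposited values are probe set summaries made by the authors and were taken as log2 from the values themselves, which run from 5.46 to 15.8. Background correction, normalization and summary are not given in the sources used here. Not tested were 108 of the array maker's own control probe sets. The platform annotation gave the gene symbols, and a RefSeq gene table the synonyms and the gene order. No sequences or coordinates are given.

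The comparison was fitted by limma 3.58.1 under R 4.3.3, with empirical Bayes moderation, two-sided p-values, Benjamini-Hochberg adjustment over 10101 probe sets and a threshold of 0.05, without filter or block. On simulated arrays for this comparison (10101 probe sets), 50 changes were set at each size. The fit found 46 at a log2 size of 0.01, 47 at 0.1, 49 at 1 and 50 at 2, and made 10 false calls. The simulated noise was normal, with 1 SD per probe set for both groups and no array apart from its group. In the data, 241 of the 268 variable probe sets had the larger SD in control, and control replicate 3 resembled drought. The counts therefore do not give the share of real changes found here.

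The members and the gene lists were chosen with earlier results of these data known. The text names every member and, of the list, the genes called, otherwise the 5 probe sets with largest difference and 2 with smallest p. It also names the 3 genes most like each member, and others where said. The list genes LOXB, loxD, DAD1, HPL, DES, ADH2, MYC2 and LOC606710 were also named outside this rule. Alternatives were quantile normalization, median centring, a filter on the dimmest 30%, a block for the replicate number, array weights, a trended robust prior, unmoderated variance, averaged probe sets and leaving out each array. The labels do not say whether the samples of a group are separate plants, and p-values therefore reflect the spread between these samples alone, which may be technical. For arrays, their number limits the precision.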

Additional observations from a re-analysis of the deposited data

How the results depend on the processing

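The direction of all 5 member differences was the same under quantile normalization, median centring, array weights and with each array left out. The replicate block, trended robust prior, unmoderated variance, filter and averaged probe sets could not change these differences, so their direction was fixed there. The members were also selected on this contrast. Leaving out 1 array at a time gave -0.28 to -0.14 for TomloxE, -0.25 to -0.072 for AOS, -0.32 to -0.24 for ER1, 0.50 to 0.92 for TD2 and -4.4e-05 to -1.1e-05 for loxC. The difference of loxC became -0.0038 under quantile normalization and -0.0056 under median centring, which shifted the median difference of all probe sets to -0.0035 and -0.0055. AOS and ER1 fell to the filter on the dimmest 30%.

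Of the other pathway probe sets, 0 were called as deposited, 24 after centring, where 9406 of all probe sets were called, and 1 with array weights, where 391 were. Leaving out single arrays gave 0 to 1 list calls, the 1 being OPR3 without control replicate 3. The number of calls over all probe sets was 77, against 0 after quantile normalization, 0 with the replicate number as a block, 7 with unmoderated variance and 0 to 546 with 1 array left out (546 and 7 when that array was control replicate 3 or control replicate 1, and 0 or 1 for each of the others). Same-numbered arrays did not deviate together (r = -0.092, -0.023 and -0.11 across probe sets), so the numbers were not taken to pair the samples, and the block gave 0 list calls. The cause of these shifts was not tested.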
